A study of Mus musculus with 21 samples.

Results

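The genes described here serve the presentation of peptides on MHC class II molecules: H2-Aa, H2-Ab1, H2-Eb1, Cd74, H2-DMa, H2-DMb1 and Ciita. They were listed by name and followed through the probe sets (groups of short array probes) annotated to that symbol alone. Of the 7 genes, 6 had such a probe set, 14 probe sets in all, among 18194 genes with a probe set of 1 symbol on the array. The probe sets that hold H2-DMb1 are annotated to H2-DMb2 as well, so its expression was not analysed here. All 6 measured genes passed the filter on low signal and were tested among 12155 genes.

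Expression was measured on Affymetrix arrays in sorted cells of female C57BL/6 mice aged 7 to 8 weeks, 7 groups of 3 biological replicates each. Bone marrow monocytes (Ly-6B+, Ly-6G-) and resident peritoneal macrophages (F4/80 high, CD11b high) came from naive mice. The other 5 groups came from the peritoneal cavity after zymosan was injected to start a peritonitis that later resolves; zymosan is made of yeast cell walls. They were Ly-6B+ Ly-6G- monocytes at 4 h, Ly-6G- monocytes and macrophages positive or low for Ly-6B at 18 h, F4/80+ CD11b+ macrophages at 72 h, and at 168 h Ly-6B+ macrophages with medium to high F4/80 beside Ly-6B- macrophages with high F4/80. No group carried a genetic change, and whether a replicate pooled animals is not given in the sources used here. The gates are surface markers, so each group is a sorted mixture, and a lower signal from fewer class II positive cells and one from less RNA per cell cannot be told apart.

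MHC class II molecules show peptides from engulfed material to CD4+ T cells. Each is an alpha and a beta chain, H2-Aa with H2-Ab1 for the I-A molecule, while H2-Eb1 is the beta chain of I-E, whose alpha chain gene H2-Ea is not expressed in C57BL/6 mice. The invariant chain Cd74 guides new class II molecules to the endosome and blocks their groove, the H2-DM dimer (H2-DMa with an H2-DMb chain) swaps its remnant for a peptide, and the coactivator Ciita switches on transcription of the whole set. Ciita does not bind DNA itself but docks on factors of the RFX, CREB and NF-Y families, which sit on the X and Y boxes of class II promoters. Among macrophages, class II is low in many resident populations and is induced by interferon gamma.

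The promoters of 4 of the 7 genes were in the RefSeq table (build GRCm38.p6). The 250 bases before the annotated start are shown for the 3 in which a box pair was found. That these 3 share the pair follows from this choice, and H2-DMa, whose windows held no such pair, is not shown. Capitals mark the letters CTNGNAACT (X box) and TGATTGG (Y box), which were chosen after these promoters had been read and searched on both strands; the 2 motifs do not overlap here. H2-Aa lies on the minus strand at chr17:34287824-34288073, H2-Eb1 on the plus strand at chr17:34305617-34305866 and H2-DMb1 on the plus strand at chr17:34152941-34153190.
H2-Aa: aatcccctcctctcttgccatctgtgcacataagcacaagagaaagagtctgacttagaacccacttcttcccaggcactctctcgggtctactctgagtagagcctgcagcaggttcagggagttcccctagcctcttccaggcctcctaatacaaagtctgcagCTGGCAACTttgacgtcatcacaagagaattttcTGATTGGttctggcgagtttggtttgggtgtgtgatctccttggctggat
H2-Eb1: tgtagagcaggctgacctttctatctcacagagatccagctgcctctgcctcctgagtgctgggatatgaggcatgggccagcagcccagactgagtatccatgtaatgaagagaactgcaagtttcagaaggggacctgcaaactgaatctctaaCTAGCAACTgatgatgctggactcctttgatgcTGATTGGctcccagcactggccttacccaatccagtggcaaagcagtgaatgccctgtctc
H2-DMb1: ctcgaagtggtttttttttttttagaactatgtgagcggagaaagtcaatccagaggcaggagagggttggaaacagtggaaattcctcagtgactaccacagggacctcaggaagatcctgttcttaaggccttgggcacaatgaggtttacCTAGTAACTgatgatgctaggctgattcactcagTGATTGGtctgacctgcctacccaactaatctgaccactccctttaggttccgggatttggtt

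Counted from the annotated start, the X letters began at -84 in H2-Aa, -94 in H2-Eb1 and -97 in H2-DMb1. The Y letters began at -50, -61 and -63, which put the starts of both boxes 34, 33 and 34 bases apart. Over all 32851 promoter windows of this length, the X letters occurred in 3.47%, the Y letters in 7.23%, and an X followed by a Y on the same strand at 20 to 45 bases in 0.0152%, or 5 windows. Neither of the windows of H2-DMa held these letters. H2-Ab1, Cd74 and Ciita are not in the promoter table. Such a match describes letters and is not a measured binding site.

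Values are MAS5 signals, the authors' array intensities on a linear scale, and a gene stands here by its probe set of highest mean log2 signal. Signals of different probe sets are not on a common scale, so each gene is compared only with itself. Differences were fitted with limma on log2(signal + 15), which understates changes of dim genes. A gene was called where its Benjamini-Hochberg adjusted p over all 12155 genes was under 0.05 and its log2 fold change at least 1 in size. Medians of single arrays ran from 67.3 to 93.0 signal units, and precision is limited by the 3 arrays per group. Whether arrays of groups overlap is given as a description, since the share of all genes without overlap was not counted.

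The sorted groups carried markers of their labels. The summed signal of 6 monocyte markers was 84772 to 87297 in bone marrow, 118796 to 123135 at 4 h, 36020 to 44295 in Ly-6B+ cells of 168 h and 2586 to 6921 in Ly-6B- cells and residents. Timd4, a phosphatidylserine receptor of resident macrophages, averaged 18633 ± 532 (SD, n = 3) in residents, 16913 ± 519 in Ly-6B- and 1622 ± 449 in Ly-6B+ cells of 168 h. Several arrays stood apart. Bone marrow replicate 3 had a summed signal of 254532 for 9 neutrophil and progenitor markers against 127109 and 85015 in the others. The 72 h replicate 2 had 25159 for 13 B cell markers against 5964 and 9160.1. The counts of class II genes called below were the same in all 13 comparisons in a fit that omitted both of these arrays, from which replicate 2 of the 4 h group was left out too. Residents replicate 2 and Ly-6B- replicate 2 stood apart in the class II genes themselves and are taken up after the levels.

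The 3 chains of the class II molecules, H2-Aa, H2-Ab1 and H2-Eb1, were lowest in bone marrow monocytes, higher in every peritoneal group and highest in the Ly-6B+ macrophages of 168 h. For H2-Ab1, the I-A beta chain, signals of replicates 1, 2 and 3 were 1014, 909 and 807 in bone marrow, 5491, 5019 and 4489.8 at 4 h, and 7676, 9701 and 12246 at 18 h. They were 11912, 13771 and 17019 at 72 h, and 21249, 25377 and 28108 in Ly-6B+ cells of 168 h. The Ly-6B- cells of 168 h had 6127, 11578 and 5177, and residents had 2141, 7887 and 3877. All 3 bone marrow arrays lay below every other array, and all 3 Ly-6B+ arrays above every other. Group means of H2-Ab1 ran from 909.9 ± 104 in bone marrow to 24911 ± 3453 (SD, n = 3) in Ly-6B+ cells.

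H2-Eb1, the I-E beta chain, had signals of 945, 1442 and 1791 in bone marrow, 8122, 6192 and 4812 at 4 h, and 10335, 13979.8 and 18135 at 18 h. At 72 h they were 14245, 20873 and 23121, and in Ly-6B+ cells of 168 h 23268, 28041 and 29814. Ly-6B- cells had 6201, 11759 and 5217, and residents 3420.4, 8493 and 4312. The Ly-6B+ arrays of 168 h again lay above all others, though the lowest of them was close to the highest array of 72 h. H2-Aa, the I-A alpha chain, had 3010.4, 3669 and 3508 in bone marrow, 13669.8, 11264 and 9668 at 4 h, and 16920.1, 17446 and 25609 at 18 h. It had 18572, 20970.4 and 22636 at 72 h, and 22026, 27985 and 28932 in Ly-6B+ cells of 168 h. Ly-6B- cells had 13468, 20142 and 15699, and residents 8835, 18820.1 and 11720.1. For H2-Aa, on the probe set used, the Ly-6B+ arrays overlapped those of 18 h and 72 h and lay above those of the Ly-6B- cells and the residents. On its other probe sets the Ly-6B+ arrays lay above all of those groups. Their lowest Ly-6B+ arrays were 32432, 5346 and 9087, against highest arrays of 31727, 3963 and 7809 at 72 h and 30345, 2521 and 5375 at 18 h.

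Cd74, the invariant chain, was likewise lowest in bone marrow and highest in the Ly-6B+ cells of 168 h. Bone marrow arrays read 1782, 2828 and 1995 for it. The cells of 4 h had 10318, 10692 and 9762, those of 18 h 15615, 18209.7 and 15037, and those of 72 h 14490.3, 18538 and 15124. Ly-6B+ cells of 168 h had 24886, 27318 and 29958, Ly-6B- cells 6783, 16431 and 9012, and residents 4189.7, 13486 and 4774. The 18 h and 72 h arrays overlapped, and the Ly-6B+ arrays of 168 h lay above every other array.

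H2-DMa, the alpha chain of the peptide exchange factor, differed from the chains in its start. Its signals were 3382, 3914 and 2803 in bone marrow, 2218, 2684 and 2536 at 4 h, and 3508, 3933 and 6619 at 18 h. At 72 h they were 3972, 4348 and 6015, and in Ly-6B+ cells of 168 h 5793, 10055 and 8669. Ly-6B- cells had 1711, 4651 and 3457, and residents 1828, 4309 and 3012. Bone marrow arrays lay above all 4 h arrays and among those of the residents and the Ly-6B- cells, so that the lowest mean of H2-DMa was at 4 h, 2479.6 ± 238, and not in bone marrow, 3366 ± 556 (SD, n = 3).

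Ciita, the coactivator, had signals around the table median of 80.6 in bone marrow, where the added 15 weighs more than at high signal. Its signals were 92.0, 54.9 and 61.2 in bone marrow, 184, 128 and 115 at 4 h, and 193, 279 and 345 at 18 h. They were 219.7, 199 and 184 at 72 h, and 374, 479.9 and 384 in Ly-6B+ cells of 168 h. Ly-6B- cells had 113, 136 and 107, and residents 112, 96.0 and 108. The Ly-6B+ arrays lay above every other array, and the bone marrow arrays below every other.

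**Figure D1:**
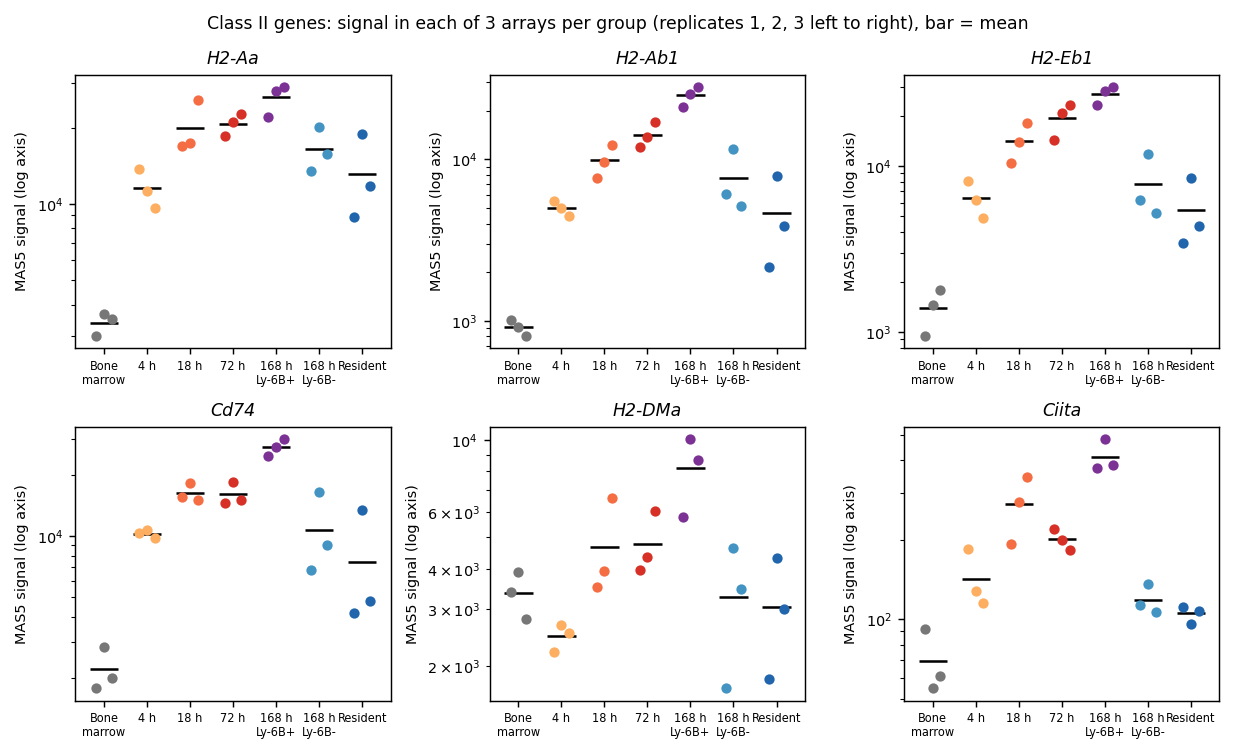
Signal of the 6 measured class II genes in each of the 21 arrays (y axis, MAS5 signal, log axis with its own range per gene; x axis, group; points, replicates 1 to 3 from left to right; bar, mean). The means are highest in the Ly-6B+ macrophages of 168 h in all 6 panels, and H2-DMa is the panel in which bone marrow is not lowest.

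Over the 7 groups, the F test of limma was past its threshold for all 6 genes, with adjusted p from 2.25e-09 for H2-Ab1 to 0.00168 for H2-DMa. It was past it for 69.7% of all genes tested, so this count says little about these genes. In the order of means of each gene, few neighbours differed. The step from bone marrow to the next group was called, with no overlap of arrays, for H2-Aa (next 4 h, log2 fold change 1.75) and for H2-Ab1, H2-Eb1 and Cd74 (next the residents, 2.14, 1.88 and 1.58). No other pair of neighbours was called for any of the 6 genes.

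The profile over the 7 group means was shared to different degrees. The mean centred profile of H2-Aa, H2-Ab1, H2-Eb1 and Cd74 had a Pearson r of 0.98 to 1.00 with each of those genes, which it contains, 0.91 with Ciita and 0.65 with H2-DMa, over 7 groups. Among 2235 other genes that spanned at least 2 log2 units, the most alike were Cma1 (r = 0.96), Dpep3 (0.95), Retnla (0.93) and B230216N24Rik, Diras2, Hepacam2 and Nid1 (each 0.92), followed by Il6 (0.91) and by Rnf128 and Gbp7 (both 0.90). Retnla, a secreted product of macrophages stimulated by IL-4, rose from 34.1 ± 18.0 in bone marrow to 19335 ± 6433 in Ly-6B+ cells of 168 h and was 4029 ± 534 in Ly-6B- cells (SD, n = 3). Cma1, a mast cell protease, rested in part on 1 array, with 2234 in 72 h replicate 2 against 128 and 156 in the others. Diras2 (726 against 87.9 and 94.1), Nid1 (377 against 23.8 and 66.8) and Hepacam2 (205 against 59.0 and 45.9) were likewise high in that array, which also held the B cell markers. With 7 points such likeness is a description.

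Monocytes of the peritoneum at 4 h had far more class II chain and invariant chain message than those of the bone marrow. Of 6 genes, 4 were called higher, against 7.45% of all genes tested: H2-Ab1 rose by a log2 fold change of 2.44 (SE 0.33, limma adjusted p = 2.79e-06), or 5.49-fold between means, Cd74 by 2.24, H2-Eb1 by 2.20 and H2-Aa by 1.75. Ciita stood 0.90 higher (adjusted p = 0.00199), under the minimum fold, and H2-DMa 0.43 lower (adjusted p = 0.306), so that neither was called on the probe set used. On another probe set Ciita was called, at 1.70 (limma adjusted p = 0.00227), and on the third it was not, at 0.93 (adjusted p = 0.0603). The median over the 6 genes was 1.97, against -0.14 over all genes. Ciita was called without bone marrow replicate 1 (1.09) or without 4 h replicate 3 (1.03). Bone marrow was flushed and treated with red cell lysis buffer while peritoneal cells were lavaged, so tissue, handling and zymosan cannot be told apart in this pair as the samples stand. The 9 neutrophil and progenitor markers, summed, ran from 85015 to 254532 in bone marrow and from 4129 to 5029 at 4 h, and their part in the result was not tested.

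Between 4 h and 18 h all 6 genes lay higher by amounts around the minimum fold. On the probe sets used, H2-Eb1 alone was called, against 10.9% of all genes called higher, at 1.14 (SE 0.33, limma adjusted p = 0.00800). H2-Ab1, H2-DMa, Ciita and H2-Aa had adjusted p under 0.05 with log2 fold changes of 0.96, 0.86, 0.85 and 0.78, and Cd74 had 0.66 (adjusted p = 0.111). The median was 0.86, against 0.14 over all genes. The arrays of the 2 times did not overlap for any of the 6. Nor did the ratio of 3' to 5' Gapdh probe sets, a sign of RNA integrity, which was 2.70, 2.47 and 2.57 at 4 h and 1.74, 1.64 and 2.12 at 18 h, and its part in the result was not tested. The count of calls was 0 without 4 h replicate 3 or without 18 h replicate 3, 3 without 4 h replicate 1 and 4 without 18 h replicate 1.

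From 18 h to 72 h no gene of the 6 was called by limma, in either direction, and none had an unadjusted p under 0.05, while 8.99% of all genes were called higher and 3.41% lower. Log2 fold changes ran from -0.38 for Ciita to 0.54 for H2-Ab1, with a median of 0.07, and the arrays of both times overlapped for every one of the 6. Across the same interval the resident macrophage marker Timd4 rose by 5.30 and the monocyte marker Ccr2 fell by 1.72 on the log2 scale. The B cell markers of 72 h replicate 2 touch this group: Ms4a1 was 5384 there against 267 and 289. Cd74 was highest in that replicate (18538 against 14490.3 and 15124). H2-Aa, H2-Ab1, H2-Eb1 and H2-DMa were highest in replicate 3 and Ciita in replicate 1. The part of B cells in these signals was not tested.

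At 168 h the macrophages sorted as Ly-6B+ had more class II message than the Ly-6B- macrophages of the same cavity. Of the 6 genes, 5 were called higher, against 1.49% of all genes: H2-Eb1 at 1.89 (SE 0.33, limma adjusted p = 5.94e-04), H2-Ab1 at 1.79, Ciita at 1.67, Cd74 at 1.45 and H2-DMa at 1.39. The ratio of means was 3.50 for H2-Eb1 and 3.48 for Ciita. H2-Aa stood 0.69 higher (adjusted p = 0.0588) and was not called on the probe set used. No array of either group lay within the range of the other for any of the 6 genes, and the median was 1.56, against -0.02 over all genes. H2-DMa was no longer called without Ly-6B+ replicate 2 (adjusted p = 0.0522) or without Ly-6B- replicate 1 (adjusted p = 0.0656).

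Across all probe sets of these genes, 13 of 14 were called higher in Ly-6B+ than in Ly-6B- cells. The exception was the one used for H2-Aa, with 0.69, while its other probe sets gave 1.50, 1.98 and 2.14. The first of these had a higher mean signal in Ly-6B+ cells than the one used, 37127 against 26314. For Ciita the 3 probe sets gave 1.67, 2.06 and 3.20. The last of these read 469, 746 and 595 in Ly-6B+ cells against 22.5, 91.3 and 58.0 in Ly-6B- cells. For H2-Ab1 they gave 1.79, 2.38 and 2.58, and for H2-DMa 1.36 and 1.39. Thus the size of a change depended on the probe set in H2-Aa and Ciita. Probe sets with x or s in their suffix can bind transcripts of related genes, which makes their level uncertain in a gene family of this kind.

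**Figure D2:**
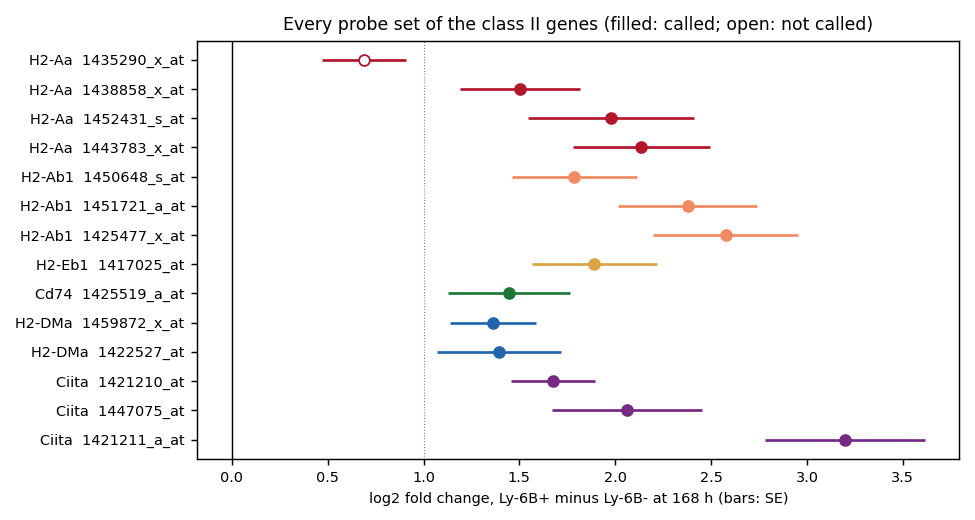
Log2 fold change, Ly-6B+ minus Ly-6B- macrophages at 168 h, of each of the 14 probe sets of the class II genes (points; bars, SE of the limma fit; filled, called). The H2-Aa probe set of highest mean log2 signal, at 0.69, is the open point, and the other 13 lie between 1.36 and 3.20.

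Markers of the other cells that carry class II were also read in these arrays. Of 11 tested B cell markers limma called none higher and 1 lower in Ly-6B+ than in Ly-6B- cells, where 1.49% and 2.38% of all genes were, and 3 had an unadjusted p under 0.05. Their median was 0.70, against -0.02 over all genes, and their sum was 8739 to 9307 in Ly-6B+ and 7501 to 9574 in Ly-6B- cells. Beneath this overlapping sum, single B cell genes lay higher in Ly-6B+ cells without overlap. Cd79a was 210 to 280 against 86.1 to 195 and Cd79b 412 to 523 against 176 to 229. Cd22 was 251 to 419 against 140 to 229 and Blk 211 to 282 against 110 to 161. Blnk lay lower without overlap, at 161 to 201 against 276 to 649. Ms4a1, which encodes CD20, was 1753, 917 and 688 in Ly-6B+ against 448, 502 and 320.4 in Ly-6B- cells, without overlap and without a call, and it was highest in replicate 1, the array in which H2-Aa, H2-Ab1, H2-Eb1, Cd74, H2-DMa and Ciita were lowest of the 3. Of 10 tested dendritic cell markers none was called higher by limma and 2 were lower, with 4 at an unadjusted p under 0.05, and their median was 0.12. The sum of 11 markers, 3798 to 4951 in Ly-6B+ against 10913 to 14758 in Ly-6B- cells, rested on Cd24a, which other cells express too and which read 1221 to 2314 and 8305 to 12398. Without it the sum of the other 10 was 2373 to 2925 and 2359 to 2716, which overlap. No defining marker was at 0, and Flt3 and Xcr1, which mark dendritic cells, were at most 57.0 and 55.8 in the Ly-6B+ arrays, under the table median of 80.6. Batf3, a factor of cross-presenting dendritic cells, was 383, 406 and 518 in Ly-6B+ against 170, 264 and 234 in Ly-6B- cells, without overlap and, at 0.93 (adjusted p = 0.0179), under the minimum fold. The monocyte markers moved with the class II genes: 5 of 6 were called higher in Ly-6B+ cells, with a median of 2.54. The part of the B cell, dendritic cell and monocyte markers in the result was not tested.

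Against naive residents, the same Ly-6B+ cells had all 6 genes called higher, where 1.90% of all genes were: H2-Ab1 at 2.61 (SE 0.33, limma adjusted p = 1.37e-05), H2-Eb1 at 2.42, Cd74 at 2.08, Ciita at 1.82, H2-DMa at 1.47 and H2-Aa at 1.06. The median was 1.95, against -0.03 over all genes, and no arrays overlapped. H2-Aa fell under the minimum fold without Ly-6B+ replicate 3 (0.99) or without residents replicate 1 (0.81). Against bone marrow, all 6 were likewise called higher in the Ly-6B+ cells, with 10.2% of all genes, from 1.25 for H2-DMa to 4.75 for H2-Ab1. These 3 comparisons share the Ly-6B+ arrays. Beside the difference from residents, monocyte markers had 5 of 6 called higher (median 2.34). Of 11 B cell markers limma called none higher and 1 lower, while the share of all genes called lower was not counted. The median of the B cell markers was 1.25, with 9 at an unadjusted p under 0.05. The part of both sets of markers in the result was not tested.

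The Ly-6B- macrophages of 168 h were not told apart from naive residents by any class II gene. None of the 6 was called by limma in either direction, and 1, H2-Ab1, had an unadjusted p under 0.05. Of all genes 0.0411% were called higher and 0 lower. Log2 fold changes ran from 0.07 for H2-DMa to 0.83 for H2-Ab1, all with adjusted p = 0.9998, and arrays overlapped for all 6. The SE of these differences was 0.22 to 0.33, so moderate differences were not detectable with 3 arrays.

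Macrophages of 72 h stood higher than residents in all 6 genes, with calls for both beta chains. Against residents, H2-Eb1 at 1.92 (limma adjusted p = 0.00245) and H2-Ab1 at 1.80 (adjusted p = 0.00527) were called higher, 2 of 6 where 0.666% of all genes were. Cd74 at 1.30 had an adjusted p of 0.0526, and Ciita, H2-Aa and H2-DMa stood 0.84, 0.73 and 0.71 higher without a call. On other probe sets H2-Aa was called too, at 1.63 (adjusted p = 0.00917) and 2.06 (adjusted p = 0.00356). Monocyte markers had 4 of 6 called higher in this pair and B cell markers a median of 1.07 with none of 11 called by limma and 4 at an unadjusted p under 0.05, and their part was not tested. Without residents replicate 2 there were 4 calls, with Cd74 at 1.83 and H2-Aa at 1.02 added. Between 72 h and Ly-6B+ cells of 168 h no gene was called by limma on the probe set used, although 4 had an unadjusted p under 0.05. Of all genes 0.666% were called higher and 1.85% lower in the Ly-6B+ cells. The closest was Ciita, 0.98 higher in Ly-6B+ cells (adjusted p = 0.00919). It was called without 72 h replicate 1 (1.04) and without Ly-6B+ replicate 1 (1.05) or 3 (1.03). On other probe sets Ciita was called higher in Ly-6B+ cells at 1.89 (limma adjusted p = 0.00925). H2-Ab1 was called there at 1.36 (adjusted p = 0.0438) and 1.35 (adjusted p = 0.0353). The third probe set of Ciita, at 1.34 (adjusted p = 0.0580), and the other probe sets of H2-Aa and H2-DMa were not called. Ly-6B- cells of 168 h had no gene called against 72 h on any probe set. In that pair 0.0576% of all genes were called higher and 0.428% lower, and 4 of the 6 class II genes had an unadjusted p under 0.05. H2-Eb1 was 1.39 lower there (limma adjusted p = 0.0543), and without Ly-6B- replicate 2 it fell by 1.74 (adjusted p = 0.0116).

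Residents of naive mice carried more class II chain message than naive bone marrow monocytes. H2-Ab1 at 2.14, H2-Eb1 and H2-Aa both at 1.88 and Cd74 at 1.58 were called higher by limma, 4 of 6, where 12.8% of all genes were. Ciita was 0.53 higher (adjusted p = 0.0540) and H2-DMa 0.21 lower (adjusted p = 0.629), with overlapping arrays for H2-DMa. Another probe set of Ciita was called, at 1.15 (limma adjusted p = 0.0205), and the third was not, at 0.76 (adjusted p = 0.148). Cells of 18 h had 5 of 6 called higher than in bone marrow, with 7.28% of all genes, the exception again being H2-DMa at 0.43. Against residents, cells of 18 h had 4 of 6 called higher, with 5.15% of all genes: H2-Eb1 at 1.46, Cd74 at 1.33, H2-Ab1 at 1.26 and Ciita at 1.22. H2-Ab1 of that pair fell under the minimum fold without residents replicate 1 (0.81). Of the markers of other cells, 6 of 11 of B cells (median 1.55), 4 of 10 of dendritic cells (median 0.92) and 6 of 6 of monocytes (median 5.72) were called higher at 18 h than in residents, and their part in the result was not tested.

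**Figure D3:**
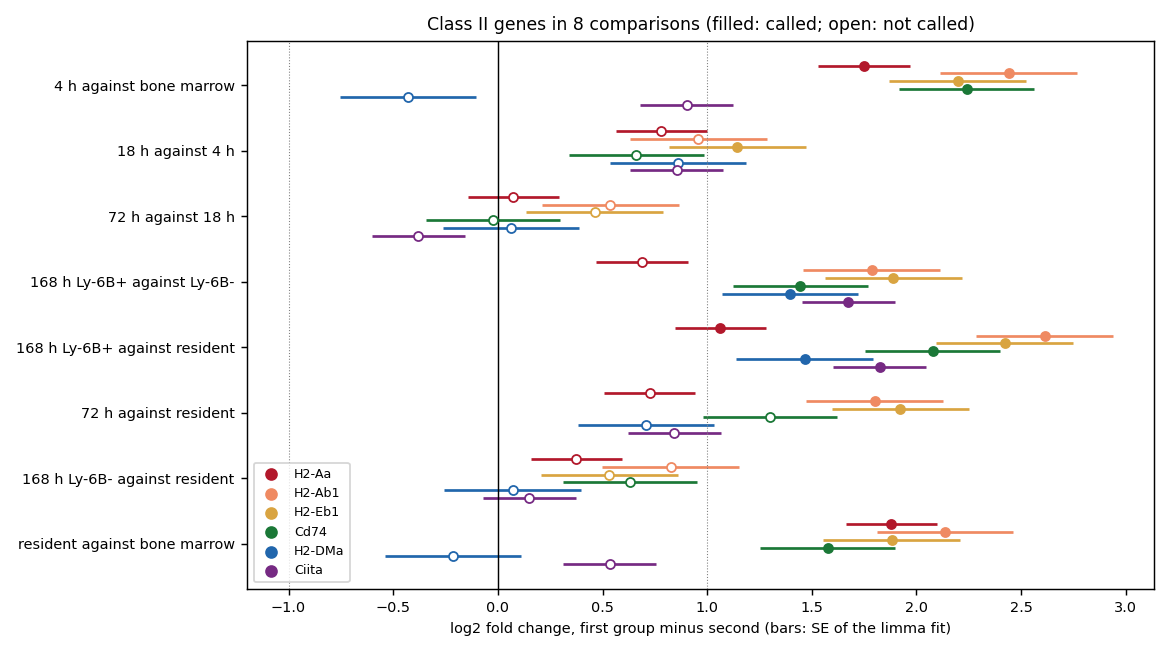
Log2 fold change of the 6 class II genes in 8 comparisons (x axis, first group minus second; bars, SE of the limma fit; filled points, called). H2-DMa at -0.43 and -0.21 lies left of 0 in the comparisons of 4 h cells and of residents with bone marrow, and all 6 points are filled for Ly-6B+ cells against residents.

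Arrays of 1 group lay far apart among residents and Ly-6B- cells of 168 h, and in these groups the spread was shared between genes. In residents replicate 2, Cd74 stood 1.59 above the mean of the other arrays on the log2 scale, H2-Ab1 1.45, H2-Eb1 1.14, H2-Aa 0.89 and H2-DMa 0.87, while Ciita stood 0.17 below. Their median was 1.01. In Ly-6B- replicate 2 all 6 genes were highest, with a median of 0.98. In the Ly-6B+ group, replicate 2 held the highest array for 2 of the 6, H2-DMa and Ciita. The chains and Cd74 thus stood high in the same array in the residents and the Ly-6B- cells. In the Ly-6B+ cells they were highest together in replicate 3, by less, at 0.20 to 0.28 above the mean of the other arrays. In the remaining groups they were not highest in the same array. In 18 h replicate 3 the 3 chains stood 0.50 to 0.59 above the mean of the other arrays, H2-DMa 0.83 and Ciita 0.54, with Cd74 at -0.17. That array was thus the highest of its group for 5 of the 6 genes, with a median of 0.56. For Ciita in residents the probe sets disagree, since the one used read 112, 96.0 and 108, another 39.8, 67.3 and 29.6, highest in replicate 2, and the third 46.4, 34.2 and 46.2.

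B cell markers did not stand higher in residents replicate 2: Cd79a was 21.7 there against 108 and 71.7, Ms4a1 was 175 against 432 and 314, and the sum of 13 markers was 7899.8 against 8319 and 8236. The sum of 10 dendritic cell markers, Cd24a left out, was 2262 against 2746 and 2466, but Flt3 was 65.2 against 10.7 and 12.2. In Ly-6B- replicate 2 the B cell sum was 9294 against 7501 and 9574, with Cd79a at 195 against 86.1 and 149. Irf1, an interferon induced factor that acts on Ciita, was 12341 in that array against 7799 and 9183, and 7449.7 in residents replicate 2 against 5289 and 8122. The Gapdh ratio was 2.04 in residents replicate 2 against 2.22 and 2.29, and 1.94 in Ly-6B- replicate 2 against 2.42 and 2.36. The part of these values in the spread was not tested. Without both arrays, the 5 calls of Ly-6B+ over Ly-6B- cells and the 6 over residents stood at 5 and 6, and Ly-6B- cells against 72 h had 3 genes called lower in place of 0, H2-Eb1 (-1.74), H2-Ab1 (-1.32) and Cd74 (-1.03).

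**Figure D4:**
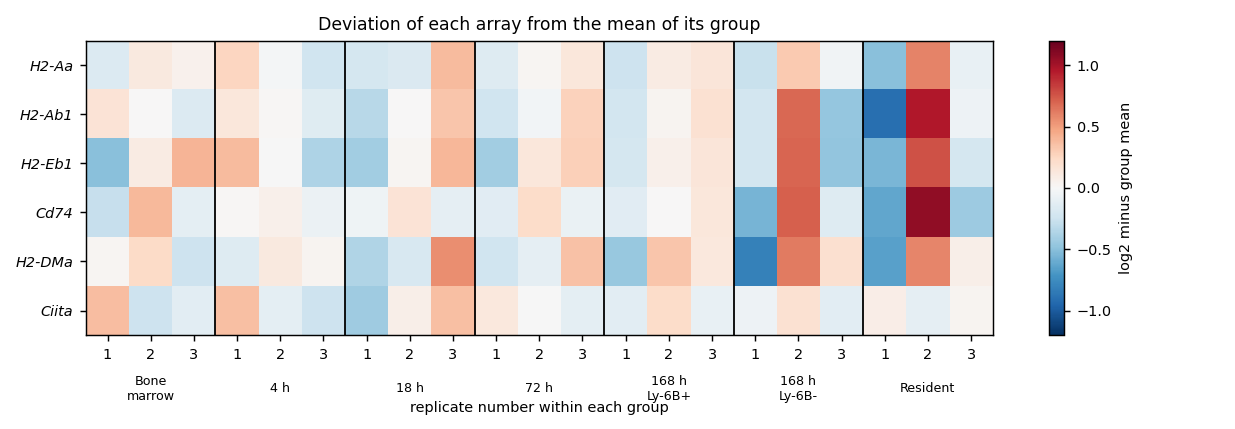
Difference of each array from the mean of its group (colour, log2 scale; rows, class II genes; columns, replicates 1 to 3 in each of 7 groups). The dark red columns are replicate 2 of the residents and of the Ly-6B- cells, and in the residents the colour of Ciita, on the probe set used, stays near 0.

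The other genes of the class II pathway did not share the profile as a set. Of 5 other class II genes with a probe set, H2-Ea, H2-Eb2 and H2-Oa had means of at most 234, 65.3 and 134. H2-Ob, the beta chain of H2-DO, which restrains H2-DM, was the exception. Its signals were 928, 627 and 676 in Ly-6B+ cells of 168 h, 257, 295 and 181 in Ly-6B- cells and 187, 249 and 195 in residents. It was called higher in Ly-6B+ than in Ly-6B- cells (log2 fold change 1.56, limma adjusted p = 0.00471) and than in residents (1.74, adjusted p = 0.00165), and at 18 h against 4 h (1.04, adjusted p = 0.0183). Its 72 h arrays read 265, 969 and 359.7, the high one being the array with B cell markers. H2-DMb2 was called lower in residents than in bone marrow (-1.16, adjusted p = 0.0272).

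None of the 7 tested factors that bind class II promoters (Rfx5, Rfxap, Rfxank, Nfya, Nfyb, Nfyc, Creb1) was called by limma in any of the 13 comparisons; 21 of the 91 tests had an unadjusted p under 0.05. The largest fold change among them was -0.90, for Nfya in residents against bone marrow (limma adjusted p = 1.65e-04, under the minimum fold). Rfx5 averaged 1853 ± 312 in Ly-6B+ and 1817 ± 465 in Ly-6B- cells of 168 h, and 1124 ± 142 in bone marrow (SD, n = 3). Their median from Ly-6B- to Ly-6B+ cells was 0.04, against -0.02 over all genes.

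Genes known to act upstream of Ciita changed most at 4 h. Of 18 tested, 5 were called higher and 2 lower against bone marrow, where 7.45% and 14.5% of all genes were: the IL-4 receptor chain Il4ra rose by 3.57, the repressor Prdm1 by 3.18 and the interferon induced Irf1 by 1.80. From 4 h to 18 h, Irf4, a factor of alternatively activated macrophages, rose by 2.98, while Prdm1 fell by 2.81 and Il4ra fell by 2.21; 1 of the 18 was called higher and 4 lower, with 10.9% and 4.48% of all genes. Between Ly-6B+ and Ly-6B- cells of 168 h none of the 18 was called by limma, with 8 at an unadjusted p under 0.05, and none between Ly-6B+ cells and residents, with 9. Irf1 was 9410, 16001 and 12567 in Ly-6B+ and 7799, 12341 and 9183 in Ly-6B- cells, which overlap. Irf4 was 1303, 1709 and 1917 in Ly-6B+ and 1069, 1028 and 1024 in Ly-6B- cells, which do not.

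Genes listed for antigen and invariant chain processing were more often called higher than lower against bone marrow. In Ly-6B+ cells of 168 h against Ly-6B- cells and residents few were called, all lower. Of 17 tested, 4 were called higher and 1 lower at 4 h against bone marrow, where 7.45% and 14.5% of all genes were, led by the cathepsin Ctsl at 2.39 and the asparaginyl endopeptidase Lgmn at 2.37. Lgmn averaged 852 ± 57.2 in bone marrow, then 4479.6 ± 486 and 9590.5 ± 1128 at 4 h and 18 h, and 11842 ± 733 in residents (SD, n = 3). In Ly-6B+ cells of 168 h it was 3486 ± 614 against 11605 ± 676 in Ly-6B- cells, a fall of 1.75 on the log2 scale (limma adjusted p = 2.68e-08), while class II genes were higher there. Along with Lgmn, the tetraspanins Cd9 (-1.70) and Cd81 (-1.35) were called lower in Ly-6B+ cells, with 2.38% of all genes. Of these 3 called genes Lgmn alone is a protease. None of the 17 was called higher, with 6 at an unadjusted p under 0.05 in limma. Against residents 3 of the 17 were called lower in Ly-6B+ cells and none higher by limma, with 8 at an unadjusted p under 0.05. Of all genes 1.90% were called higher there. Against bone marrow 6 of the 17 were called higher and none lower, with 10.2% of all genes called higher. The share of all genes called lower was not counted for either pair. The invariant chain protease Ctss had means of 27228 to 34188 in all 7 groups and was called in none of these comparisons.

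**Figure D5:**
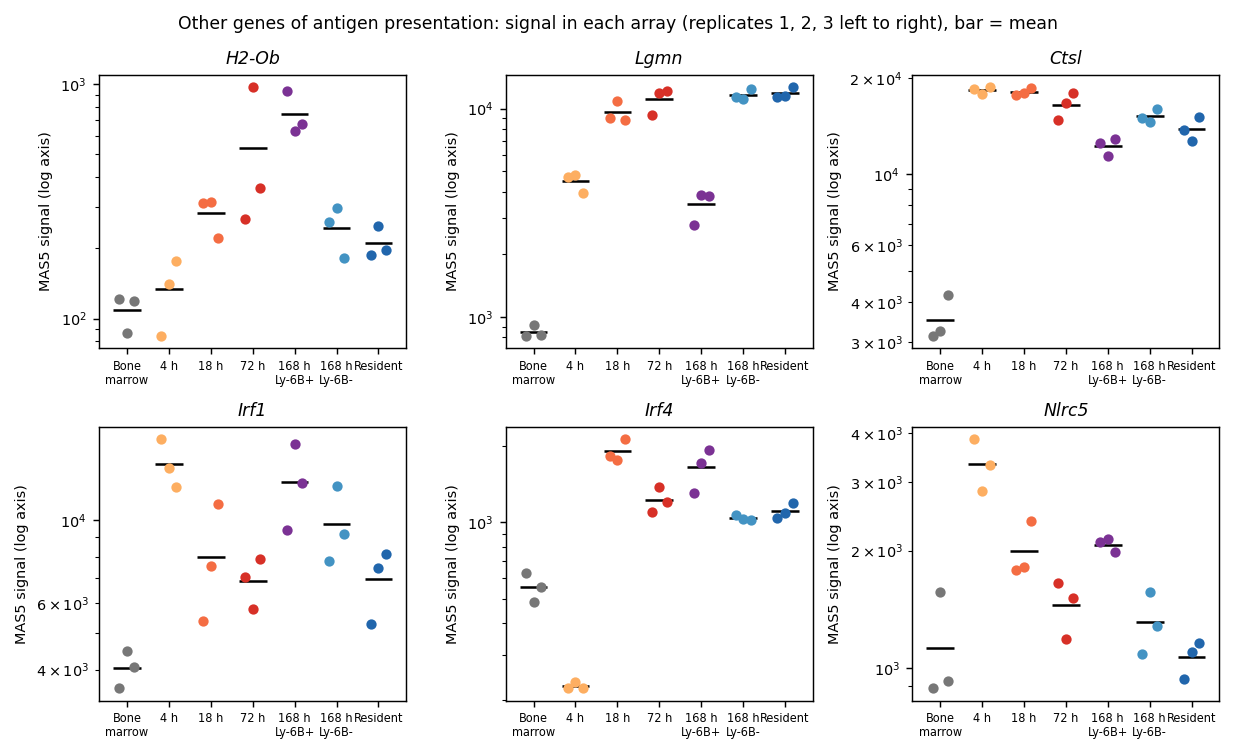
Signal in each array of 6 other antigen presentation genes (y axis, MAS5 signal, log axis with its own range per gene; x axis, group; points, replicates 1 to 3 from left to right; bar, mean). H2-Ob is high in the Ly-6B+ cells of 168 h, where Lgmn is low, and Irf1 and Nlrc5 have their highest means at 4 h.

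Class I presentation, which displays peptides from inside the cell on all nucleated cells, moved little beside class II. Of 12 tested genes, 1 was called higher at 4 h against bone marrow, Nlrc5 (1.59, limma adjusted p = 8.35e-07), the class I relative of Ciita, and 1 in residents against bone marrow, Pdia3 (1.28), where 7.45% and 12.8% of all genes were. None was called by limma between Ly-6B+ and Ly-6B- cells of 168 h, with 5 at an unadjusted p under 0.05, and their median there was -0.11, that of the 6 class II genes being 1.56. Nlrc5 was 3852, 2834 and 3301 at 4 h and 889.8, 1567 and 927 in bone marrow, with no overlap, and its means in Ly-6B+ and Ly-6B- cells of 168 h were 2072 ± 84.8 and 1314 ± 239 (SD, n = 3).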

How the data were processed

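RNA was labelled with biotin and hybridised to Affymetrix arrays. Per the labels, cells were stained and sorted on ice, RNA was extracted with TriZol and amplified in a 2-cycle labelling. The authors deposited MAS5 signals, a linear intensity computed with Affymetrix Expression Console 1.2, per the submitters' processing notes; the scaling target is not given in the sources used here, and the 2% trimmed mean of each array was 500.0 on the values. Of 45101 probe sets, 34958 had 1 gene symbol in the platform annotation, 932 several and 9211 none listed.

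Signals were taken as log2(signal + 15), 15 being the 20th percentile of all values. A gene stood by its probe set of highest mean log2 value and was tested where it exceeded 80.6, the table median, in at least 3 arrays. All 21 arrays entered a single limma fit (version 3.58.1, R 4.3.3; lmFit, then eBayes with trend; 2-sided tests), with 14 residual degrees of freedom. On simulated data for Ly-6B+ against Ly-6B- cells with 12030 genes, 64 of 66 changes of 1.5, 66 of 67 of 2 and 67 of 67 of 3 log2 units were recovered. The changes were placed, with independent noise, only in genes well above the table median, of higher signal than Ciita. Recovery in dimmer genes or of changes under 1.5 was not tested.

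The members and gene lists were chosen with earlier results of these data known. From the lists, the 3 called genes with the largest changes were eligible to be named; Ctss, Irf1 and Irf4 at 168 h and the cell type markers shown were chosen after their values were seen. Replicate numbers were taken to pair arrays only for the groups of 168 h, where the correlation of residuals between same-numbered arrays was 0.304, 0.280 and 0.175. The fit used holds no term for this pairing. Alternatives varied the pseudocount, normalization, filter, probe set rule, variance model, minimum fold, replicate block and arrays used. Promoter letters were searched in RefSeq windows of GRCm38.p6.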

Additional observations from a re-analysis of the deposited data

How the results depend on the processing

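Of the 26 counts of class II genes called higher or lower in the 13 comparisons, 22 stayed within 1.5 times their value under every alternative run. Among them were those of Ly-6B+ cells against Ly-6B- cells, residents and bone marrow and of 4 h cells against bone marrow. All counts called lower and several called higher were 0 in the fit used, so the 22 include many that were 0 and stayed 0. The count called higher at 18 h against 4 h, 1 in the fit used, was 2 with quantile normalization, 0 with a common array median, 4 with the mean of the probe sets or every probe set, 5 with no minimum fold, and 0 to 4 with an array left out. The count for 72 h against residents, 2, was 1 with only the 6 arrays compared, where H2-Ab1 had an adjusted p of 0.118, 4 with residents and Ly-6B- replicates 2 left out together (an alternative chosen after seeing the data), and 2 to 4 with an array left out. For Ly-6B+ cells against 72 h, 0 became 1 with a pseudocount of 1, the mean of the probe sets or no minimum fold, 2 with every probe set, and 0 to 1 with an array left out. For Ly-6B- cells against 72 h, 0 genes called lower became 1 with a pseudocount 4 times as large, quantile normalization, a common array median or the filter at the 75th percentile, 3 without both replicates 2, and 0 to 1 with an array left out.

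With the replicate block, 1 gene was called lower in Ly-6B- cells against 72 h, H2-Eb1 (limma adjusted p = 0.0197). Cd74 was called in 72 h against residents (adjusted p = 0.00702). The block changed no other call, those between the 168 h groups included. It fits a shared effect of each replicate number over all groups, so a pairing of the 168 h groups alone was not tested.

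Of 1625 values of single genes, 1553 kept their direction and side of the threshold, 48 gained a call, 10 lost one and 14 changed sign, all 14 in differences that were not called. From 18 h to 72 h, H2-Aa turned to -0.043 and H2-DMa to -0.055 with a common array median. With an array left out, the values of that pair ran from -0.033 to 0.266 for H2-Aa, from -0.118 to 0.339 for H2-DMa and from -0.133 to 0.058 for Cd74. Those of H2-DMa ran from -0.504 to 0.111 in residents against bone marrow and from -0.253 to 0.478 in Ly-6B- cells against residents. The cause of these changes was not tested. Ciita has no value with the filter at the 75th percentile, which it does not pass.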
